A study of Mus musculus with 15 samples.

Results

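The D218G line of GATA1 was compared directly with the R216Q line in G1E cells. The arrays used are the 3 whose labels name D218G and the 3 that name R216Q, which is 6 of the 15 arrays of the study. G1E cells are red cell precursors derived from mouse embryonic stem cells that lack Gata1, and they stop maturing at about the proerythroblast stage. In each of 5 lines, GATA1 was put back as a fusion to a ligand-binding domain of the oestrogen receptor (ER), so that estradiol switches the factor on: the wild type fusion, R216Q, R216W, D218G and D218Y, with 3 biological replicates each. All 15 cultures, wild type included, lacked the cell's own Gata1 and received 100 nM estradiol for 24 hours, and total RNA was read on Affymetrix arrays. No untreated culture and no parental G1E culture was analysed here. The 6 arrays therefore differ, by their labels, in the residue of the fusion alone: glutamine for an arginine (R216Q), or glycine for an aspartate (D218G). Each construct is taken as 1 line, since the sources used here do not give the vector, its promoter or how many transduced pools or clones there were. A mutation and its line therefore cannot be told apart, and a p-value here speaks of the scatter among cultures only.

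GATA1 is the zinc finger transcription factor that red cells, megakaryocytes and mast cells need. Its carboxy-terminal finger holds the DNA motif, while its amino-terminal finger, where both residues lie, touches DNA with one face and the cofactor FOG1 (gene Zfpm1) with another. The arginine belongs to the DNA-contacting face and the aspartate to the surface near FOG1, and both changes are known from families with inherited low platelet counts. As precursors mature, GATA1 turns on globin, haem and membrane genes and turns off progenitor genes such as Gata2 and Kit. The 2 lines were paired because earlier results of these data showed a like, moderate fall of red cell genes and a difference in progenitor genes. Those patterns are described here and are not independent support.

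Values are log2 expression, so a difference of 1 is a 2-fold change, and every difference is D218G minus R216Q unless another is named. A gene was called at an adjusted p under 0.05 (limma, over all 19933 genes tested), and errors are limma's standard errors (SE) of a difference of 3 against 3 arrays. Between the lines 2668 genes were called, or 13.4% of those tested: 1369 higher in D218G (6.87%) and 1299 lower (6.52%). Among the 9966 genes above the median level, 25.8% were called (13.4% higher, 12.4% lower), which is the nearer background for lists of well-expressed genes. Only 52 genes (0.261%) were both called and at least 2-fold apart, 16 higher in D218G (0.0803%) and 36 lower (0.181%). The smallest difference called was 0.10, and the median SE over genes was 0.06. Against wild type 21.5% of genes were called in R216Q and 18.1% in D218G. The arrays of the mutants did not overlap for 4741 genes (23.8%), and 2640 genes (13.2%) were both called and free of overlap. Most calls are therefore small shifts, and a small set of genes carries the large ones.

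D218G replicate 3 stood apart from its fellows. Its median over genes was 6.25, against 6.37 and 6.40 in the other D218G arrays and 6.32 to 6.38 in R216Q. In a principal component analysis of the 6 arrays the first component (49.5% of the variance) separated the lines, R216Q at -12.81 to -10.5 and D218G at 10.52 to 12.08. The second (33.9%) held D218G replicate 3 at 16.03 and its fellows at -5.54 and -11.95. Without that array 3005 genes were called (15.1%), 1259 higher (6.32%) and 1746 lower (8.76%), so the balance of directions rests in part on it, and list counts below are given both ways where they moved by 2 or more.

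The Gata1 transcript itself was measured first. It read 12.35, 12.36 and 12.36 in wild type, 12.16, 12.15 and 12.14 in R216Q, and 12.35, 12.33 and 12.38 in D218G. D218G sat at the wild type level and R216Q a little below, with no overlap. The difference was 0.20 ± 0.03, or 1.15-fold (adjusted p = 2.41e-04, limma). An exact two-sided permutation test of the 6 arrays gave p = 0.1, the smallest that 3 against 3 allows. How the probe set reads the fusion and what protein level follows were not measured, and the part of this difference in the results that follow was not tested.

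The cells carried the red cell programme that their label names. Alas2, the first enzyme of red cell haem synthesis, lay between 11.78 and 12.04 in all 6 arrays, and Slc4a1, which swaps chloride for bicarbonate across the red cell membrane, between 11.26 and 11.43. The means over 24 granulocyte and monocyte genes were 5.44 to 5.48 in R216Q and 5.34 to 5.50 in D218G. Those over 17 lymphoid genes were 4.97 to 5.08 and 4.89 to 5.04, and those over 15 stroma genes 5.85 to 5.95 and 5.79 to 5.96. No member of these 3 lists was called with limma, and 1 in each had an unadjusted p under 0.05. In bulk RNA, fewer cells of a type and less RNA per cell cannot be told apart.

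One set of the largest differences held genes that R216Q expressed well above both D218G and the wild type. Slc30a2, a transporter that carries zinc into vesicles, read 9.99, 10.04 and 10.06 in R216Q and 6.67, 6.41 and 6.35 in D218G. The wild type arrays, at 6.83, 6.61 and 6.49, overlapped those of D218G in part, and R216Q stood far above both. The difference was -3.55 ± 0.08, or 11.7-fold lower in D218G (adjusted p = 2.54e-12). Against wild type, Slc30a2 was 3.38 higher in R216Q, and D218G missed the threshold at -0.17 (adjusted p = 0.218). The other mutants were high as well, with means of 10.03 in R216W and 9.52 in D218Y.

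Tph1, which makes the serotonin precursor 5-hydroxytryptophan and is much used by mast cells, had the same shape. It read 8.03, 7.80 and 7.79 in R216Q against 5.19, 5.22 and 5.07 in D218G, with wild type at 5.30, 5.19 and 5.40. The difference was -2.71 ± 0.07, or 6.55-fold (adjusted p = 1.21e-11). Tph1 was thus near the low end of the arrays' range in D218G and in wild type, and clearly expressed in R216Q. It was so in R216W and D218Y too, with means of 7.95 and 8.6. Other genes of this shape were Erv3, an endogenous retroviral sequence (-1.76 ± 0.09), Anxa2, a calcium-dependent membrane-binding annexin (-1.47 ± 0.15), Piwil4, a Piwi-family RNA-binding protein (-1.55 ± 0.06), and Dlc1, a GTPase-activating protein (-1.44 ± 0.07). Against wild type these 4 were 1.19 to 1.81 higher in R216Q and between -0.28 and 0.38 in D218G. Piwil4 (0.24) and Dlc1 (0.38) were called above wild type in D218G too, by far less than in R216Q. With all its probe sets averaged instead, the Dlc1 difference was -0.73. In R216W and D218Y the Dlc1 means were 8.81 and 8.96, near the 8.98 of R216Q. Erv3 was near wild type (5.37) in R216W (5.5) and far above it in D218Y (10.13). Anxa2 and Piwil4 read 6.59 and 7.05 in R216W, below R216Q, and 8.42 and 9.49 in D218Y, above it.

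A second set was lower in D218G than in wild type too. Il9r, the receptor subunit that binds interleukin 9, read 10, 9.98 and 9.93 in R216Q, 9.03, 8.98 and 9.02 in wild type, and 7.48, 7.67 and 7.62 in D218G. The wild type lay between the mutants, 0.96 below R216Q and 1.42 above D218G. The difference between the mutants was -2.38 ± 0.05, or 5.22-fold (adjusted p = 5.41e-13). Il1bos, a long non-coding RNA at the interleukin 1 beta locus, was lower by more (-2.90 ± 0.10, 7.45-fold), from 8.83, 8.82 and 8.84 in R216Q to 5.78, 5.89 and 6.14 in D218G. Here most of the distance lay on the D218G side, since wild type read 8.33, 8.34 and 8.11. Cdc25b, a phosphatase that activates cyclin-dependent kinases for mitosis (-1.45 ± 0.04), Pstpip2, an adaptor of the membrane and actin skeleton (-1.64 ± 0.05), and Smim3, a small membrane protein (-1.40 ± 0.06), also had their wild type level between those of the mutants.

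The promoter of Il9r is shown because that gene was among the largest falls and holds the letters that GATA factors read. The sequence is the 250 bases before its RefSeq start, GRCm38.p6 chr11:32200280-32200529, minus strand, 5′ to 3′, with matches to a GATA hexamer in capitals. The hexamers searched on either strand were AGATAA and AGATAG, and the same letters with T in first place, TGATAA and TGATAG.
Il9r: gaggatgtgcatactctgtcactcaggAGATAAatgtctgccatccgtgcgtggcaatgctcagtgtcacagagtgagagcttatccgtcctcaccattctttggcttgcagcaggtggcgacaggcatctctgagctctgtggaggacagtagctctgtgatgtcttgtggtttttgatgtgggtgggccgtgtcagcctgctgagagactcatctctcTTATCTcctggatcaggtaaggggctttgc
The window holds 2 matches. Over windows from 250 bases before to 50 after each listed start, such a hexamer was found in 5 of the 9 genes with a RefSeq promoter among the 12 largest falls (55.6%), 3 of 7 among the 12 largest rises (42.9%), 10 of 17 red cell membrane genes (58.8%), 6 of 20 progenitor genes (30.0%) and 28.0% of the 15610 tested genes with a promoter. A match is a description of the letters, and binding was not measured.

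**Figure D1:**
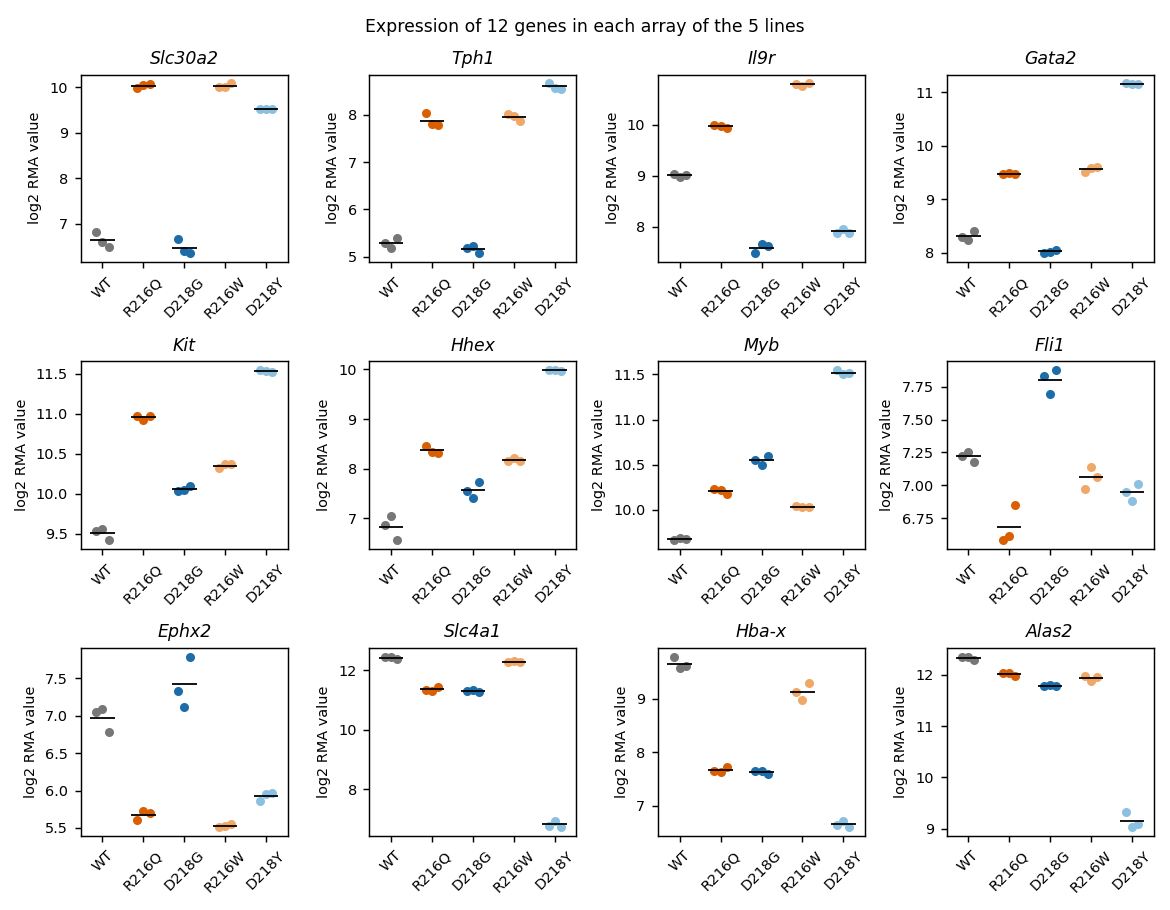
Log2 expression of 12 genes (one panel each) in every array of the 5 lines; dots are single arrays and bars are line means. Slc30a2 and Tph1 are high in R216Q, R216W and D218Y and low in D218G and wild type. Fli1 and Ephx2 are lower in R216Q than in D218G, and Slc4a1 and Hba-x sit at like levels in those lines.

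The largest rises in D218G were smaller than the largest falls. Ephx2, a soluble epoxide hydrolase, read 5.60, 5.72 and 5.70 in R216Q and 7.33, 7.12 and 7.79 in D218G, with wild type at 7.05, 7.09 and 6.78. The groups did not overlap, and the difference was 1.74 ± 0.12, or 3.35-fold (adjusted p = 2.26e-07). Gdpd1, a phospholipase of the lysophospholipase D type, rose by 1.69 ± 0.07, from 8.33, 8.40 and 8.27 to 9.98, 10.01 and 10.09. For both genes the wild type lay close to D218G, and of the 2 lines R216Q departed from it further. The R216Q difference from wild type was -1.30 for Ephx2 and -1.31 for Gdpd1, against 0.44 and 0.38 in D218G. The other mutants were below wild type too, with means of 5.53 in R216W and 5.93 in D218Y for Ephx2. For Gdpd1 these means were 7.93 and 7.47, with wild type at 9.65.

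Wild type was also nearer to D218G for Septin4, a filament-forming GTPase (1.5 ± 0.10), Rgs12, a regulator of G protein signalling (1.39 ± 0.06), and Mylk3, a myosin light chain kinase (1.43 ± 0.07). Pkhd1l1, a large fibrocystin-like membrane protein (1.67 ± 0.06), Fhdc1, a formin-type regulator of actin and microtubules (1.53 ± 0.11), and Usp18, which removes the ubiquitin-like ISG15 (1.22 ± 0.05), lay further above wild type in D218G (0.86 to 1.15) than below it in R216Q (-0.70 to -0.36). The rest of the 12 largest rises, which pass over microRNA genes and placeholder symbols, were Ppp2r5b, a regulatory subunit of phosphatase PP2A (1.09), Slc52a3, a riboflavin transporter (1.09), and Stom, stomatin of the red cell membrane (1.04). Fli1, the last of them, is described with the progenitor genes.

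Progenitor genes moved in both directions. Of 25 measured, 6 were lower and 4 higher in D218G (40% called), with a median of 0.00 beside -0.01 over all genes. Gata2, the GATA factor of progenitors that GATA1 normally replaces on DNA, read 9.48, 9.49 and 9.48 in R216Q and 7.99, 8.02 and 8.06 in D218G. The difference was -1.46 ± 0.04, or 2.75-fold (adjusted p = 2.87e-11), and wild type (8.29, 8.25 and 8.41) was above D218G and below R216Q. Kit, the receptor for stem cell factor, fell from 10.98, 10.93 and 10.98 to 10.04, 10.05 and 10.10 (-0.90 ± 0.04, adjusted p = 1.81e-09). Hhex, a homeobox factor of early blood cells, fell from 8.46, 8.33 and 8.31 to 7.55, 7.41 and 7.74 (-0.80 ± 0.10, adjusted p = 5.67e-05). Kit and Hhex were above wild type in both lines, by 1.45 and 1.54 in R216Q and by 0.55 and 0.74 in D218G, so that only Gata2 of these 3 was below wild type in D218G (-0.29).

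Runx1, a core factor of stem cells and megakaryocytes (-0.41), Ikzf1, the lymphoid and progenitor factor Ikaros (-0.29), and Cd44, a hyaluronan receptor lost as red cells mature (-0.17, adjusted p = 0.0456), were the other 3 lower genes. The Cd44 call was lost in 7 alternatives, with adjusted p up to 0.203. Myb, which keeps precursors dividing, went the other way: 10.23, 10.22 and 10.17 in R216Q and 10.55, 10.50 and 10.60 in D218G, a difference of 0.34 ± 0.03 (adjusted p = 6.09e-06). Both lines were above wild type for Myb, D218G by 0.88 and R216Q by 0.53. Fli1, an ETS factor of megakaryocytes and progenitors, rose most of the list, from 6.58, 6.61 and 6.85 to 7.83, 7.70 and 7.88 (1.12 ± 0.07, 2.17-fold, adjusted p = 4.33e-08). It was below wild type in R216Q (-0.54) and above it in D218G (0.58). Lmo2, a bridging subunit of the GATA1 complex on DNA (0.40), and Cbfa2t3, a co-repressor in that complex (0.26), completed the higher 4. Spi1, the myeloid factor PU.1, missed the threshold at 0.15, with a 95% interval of -0.05 to 0.35.

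Among 19 cytokine receptor genes 5 were lower and 1 higher in D218G (31.6% called; 6 lower without D218G replicate 3). Besides Il9r these were Il4ra, the interleukin 4 receptor chain (-0.95 ± 0.06), Ifngr2 and Ifngr1, both chains of the interferon gamma receptor (-0.92 ± 0.05 and -0.37 ± 0.08), and Csf2rb, the common chain of the interleukin 3, interleukin 5 and GM-CSF receptors (-0.23 ± 0.04). Ifngr2 read 9.59, 9.59 and 9.60 in R216Q against 8.59, 8.67 and 8.77 in D218G. Il4ra and Csf2rb were at or near their wild type levels in D218G (-0.14 and 0.01) and above them in R216Q (0.82 and 0.24). Epor, the erythropoietin receptor, was the 1 higher gene (0.19 ± 0.04). A fit of the 6 arrays alone ended the Ifngr1 call (adjusted p = 0.0661).

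Markers of the other GATA1-dependent lineages were measured beside these. Of 20 mast cell genes 3 were lower in D218G, namely Tph1, Hdc, which makes histamine (-0.30), and Tpsab1, a tryptase (-0.20). Srgn, the core protein of secretory granules, was higher (0.43), and 20.0% of the list was called. The Tpsab1 call was lost in 10 alternatives (adjusted p up to 0.155) and that of Srgn in 1, the fit of the 6 arrays alone (0.073). The mean over the list was 5.15 to 5.21 in R216Q, 5.0 to 5.04 in D218G and 5.03 to 5.10 in wild type. Only 2 of the 20 genes were above the median level of all genes. The defining markers Cpa3, Ms4a2 and Fcer1a lay at 4.0 to 5.36 in all 6 arrays, where the whole table runs from 2.89 to 13.58, and none of these 3 was called. Of 16 megakaryocyte genes 3 were higher in D218G and 2 lower (31.2% called). The higher ones were the platelet glycoproteins Gp9 (0.56) and Gp5 (0.39) and the platelet tubulin Tubb1 (0.49). Among the lower was the integrin chain Itgb3 (-0.34). The mean over that list was 6.51 to 6.6 in R216Q, 6.59 to 6.65 in D218G and 6.93 to 6.96 in wild type. The part of either lineage in the differences above was not tested.

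The sterol synthesis pathway differed as a block of genes. It builds cholesterol from acetyl-CoA and is switched on by the membrane-bound factor SREBP2 when sterols run low. Of 17 enzymes measured 14 were lower in D218G and 0 higher (82.4% called), with a median of -0.41 and a range of -0.94 to -0.01. Without D218G replicate 3 the count was 15. The mean over the 17 genes was 9.98, 9.99 and 9.96 in R216Q, 9.98, 10 and 9.98 in wild type, and 9.57, 9.55 and 9.65 in D218G. R216Q thus sat at the wild type level, and all 3 D218G arrays lay below every array of both.

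Hmgcs1, the synthase at the entry of the pathway, read 10.36, 10.38 and 10.41 in R216Q and 9.44, 9.35 and 9.53 in D218G (-0.94 ± 0.05, adjusted p = 1.41e-08). Its wild type arrays read 10.33, 10.45 and 10.27, so that R216Q overlapped them and D218G did not. Cyp51, which removes a methyl group from lanosterol, differed by -0.75 ± 0.06, from 9.54, 9.61 and 9.45 to 8.73, 8.69 and 8.93. Sqle, squalene epoxidase (-0.53 ± 0.05), Dhcr7, the last reductase before cholesterol (-0.53 ± 0.04), Lss, which closes the sterol rings (-0.51 ± 0.04), and Idi1, the isopentenyl diphosphate isomerase (-0.41 ± 0.06), lay between. Members not called were Tm7sf2 (-0.16), Nsdhl (-0.10) and Mvk (-0.01). Tm7sf2 passed in 3 alternatives and Nsdhl in 5, both as lower in D218G, and Mvk in none.

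Of 14 genes of sterol uptake and control, 6 were lower and 1 higher in D218G. Insig1, which holds SREBP in the endoplasmic reticulum and is itself an SREBP target, was lower by the most (-0.48 ± 0.06). Lpin1, a phosphatidate phosphatase (-0.46 ± 0.04), and Stard4, a cholesterol carrier (-0.38 ± 0.04), followed. In D218G, Insig1 and Stard4 were below wild type (-0.34 and -0.26). Lpin1 was above wild type in both lines, by 0.59 in R216Q and 0.12 in D218G. Against wild type, 5 of the 14 genes were higher and 0 lower in R216Q, and 2 higher and 4 lower in D218G. Srebf2, the gene of SREBP2, and Scap, its escort, were lower by less (-0.19 ± 0.04 and -0.21 ± 0.04), and Srebf1 did not pass (-0.02). Abca1, a cholesterol exporter that SREBP does not drive, was the 1 higher gene (0.28 ± 0.06), a call lost in a fit of the 6 arrays alone (adjusted p = 0.0827).

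**Figure D2:**
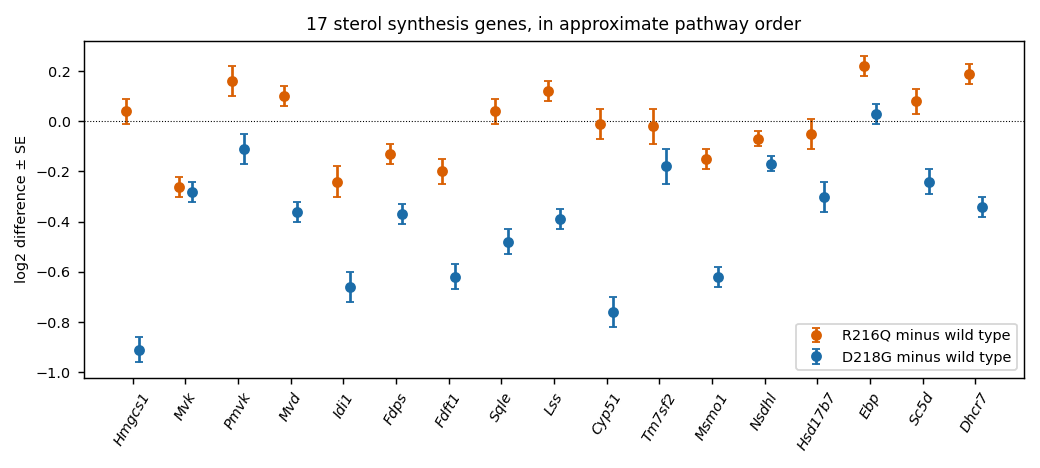
Difference from wild type (log2, bars are SE) of the 17 sterol synthesis genes in pathway order, for R216Q and for D218G. The R216Q points have a median of -0.01 and the D218G points a median of -0.36; both series share the wild type arrays.

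Sterol gene promoters are shown because the motif CCAAT, which the factor NF-Y binds beside SREBP at such genes, was among those searched. Each line is the 250 bases before a RefSeq start in GRCm38.p6, 5′ to 3′ on the gene's strand, with CCAAT or its reverse complement ATTGG in capitals. Hmgcs1 lies at chr13:119690101-119690350, plus strand, Cyp51 at chr5:4104698-4104947, minus strand, and the Dhcr7 start shown at chr7:143829964-143830213, plus strand.
Hmgcs1: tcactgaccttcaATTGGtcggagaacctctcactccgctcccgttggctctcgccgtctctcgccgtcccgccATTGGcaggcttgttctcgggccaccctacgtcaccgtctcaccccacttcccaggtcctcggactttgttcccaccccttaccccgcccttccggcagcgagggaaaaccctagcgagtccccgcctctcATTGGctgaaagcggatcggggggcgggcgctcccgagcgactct
Cyp51: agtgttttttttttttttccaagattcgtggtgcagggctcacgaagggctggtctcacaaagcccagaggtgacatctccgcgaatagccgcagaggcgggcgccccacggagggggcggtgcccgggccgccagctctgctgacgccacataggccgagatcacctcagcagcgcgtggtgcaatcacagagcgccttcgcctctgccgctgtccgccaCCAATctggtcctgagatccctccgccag
Dhcr7: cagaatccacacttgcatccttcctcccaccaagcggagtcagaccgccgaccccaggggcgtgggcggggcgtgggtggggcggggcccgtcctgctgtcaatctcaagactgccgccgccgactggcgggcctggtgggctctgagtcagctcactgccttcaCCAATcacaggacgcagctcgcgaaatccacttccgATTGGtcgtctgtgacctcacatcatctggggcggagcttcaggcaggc
The Hmgcs1 window holds 3 matches, the Cyp51 window 1 and the Dhcr7 window 2; Dhcr7 has 3 listed starts, and the windows of the other 2 hold 0 matches. Over the windows that reach 50 bases past the start, CCAAT on either strand was found in all 14 of the sterol genes with a listed promoter, against 41.7% of all tested genes with one and 29.6% of 27 ribosome biogenesis genes. Those 14 include Mvk, Nsdhl and Tm7sf2, which were not called. The E-box CACGTG was found in 3 of the 14 (21.4%, against 9.5% of all) and a GATA hexamer in 2 (14.3%).

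Fatty acid synthesis had another shape. Of 15 genes 7 were lower in D218G and 2 higher (60% called), with a median of -0.09. Scd2, a desaturase that makes monounsaturated fatty acids, read 11.89, 11.94 and 11.91 in R216Q and 11.09, 11.11 and 11.17 in D218G (-0.79 ± 0.03, adjusted p = 1.25e-09), with wild type at 11.03, 11.06 and 11.04. Here D218G was near wild type and R216Q above it. Acss2, which makes acetyl-CoA from acetate (-0.53 ± 0.03), and the chain-elongating enzymes Elovl5 (-0.50 ± 0.05) and Elovl6 (-0.42 ± 0.05) did likewise: against wild type they were 0.45 to 0.55 higher in R216Q and between -0.01 and 0.02 in D218G. In the sterol list, then, D218G was the line below wild type, and among these fatty acid genes R216Q was the line above it.

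Glycolysis genes were lower in D218G as well. Of 18 measured 11 were lower and 1 higher (66.7% called), with a median of -0.34. The mean over the list was 9.84, 9.73 and 9.87 in R216Q and 9.47, 9.48 and 9.51 in D218G, both above the 9.20 to 9.26 of wild type. Pgam1, phosphoglycerate mutase, read 11.07, 10.93 and 11.06 in R216Q, 10.14, 10.19 and 10.21 in D218G and 9.74, 9.58 and 9.57 in wild type, a difference of -0.84 ± 0.06 between the mutants. The 3 lines were thus in the order wild type, D218G, R216Q with no overlap. Pkm, pyruvate kinase (-0.83 ± 0.07), and Pdk1, a kinase that inhibits pyruvate dehydrogenase (-0.81 ± 0.08), were lower in D218G. So were Aldoc, an aldolase (-0.71 ± 0.13), and Pfkp, the platelet-type phosphofructokinase (-0.62 ± 0.06). Pfkm, the muscle-type phosphofructokinase, was the 1 higher gene, from 10.18, 10.19 and 10.25 to 10.81, 10.83 and 10.88 (0.63 ± 0.04). So 2 isoforms of 1 enzyme moved in opposite directions.

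Of 22 genes of the low-oxygen response 5 were lower in D218G and 0 higher, with a median of -0.04. The share called was 22.7%, beside 13.4% over all genes and 25.8% among genes above the median level, where 14 of the 22 lay. All 5 calls were lower, and 12.4% of genes above that level were called lower. Whether the list as a whole stood out was not tested, and its values are those of single genes. Bnip3, a mitophagy receptor, read 10.91, 10.58 and 10.86 in R216Q and 9.61, 9.58 and 9.91 in D218G (-1.09 ± 0.12). P4ha1, a collagen prolyl hydroxylase (-0.57 ± 0.07), Vegfa, the vascular growth factor (-0.48 ± 0.05), and Egln1, the prolyl hydroxylase that marks HIF for destruction (-0.38 ± 0.07), were lower too. All 4 were above wild type in R216Q, by 0.56 to 1.43. Oxygen was not varied by the labels.

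Genes of DNA replication were higher in D218G by small amounts. Of 25 S phase genes 16 were higher and 0 lower (64.0% called), with a median of 0.14. The mean over the list was 10.95 to 10.97 in R216Q, 11.08 to 11.15 in D218G and 11.06 to 11.09 in wild type. R216Q was thus below both others, and the ranges of D218G and wild type overlapped. Gins2, a subunit of the replicative helicase (0.38 ± 0.04), Ccne1, the cyclin that starts S phase (0.37 ± 0.04), Uhrf1, which copies DNA methylation (0.32 ± 0.04), and Tk1, thymidine kinase (0.28 ± 0.05), led the list. Mitosis genes were higher in 9 of 25 cases and lower in 2 (44% called), with a median of 0.08. Without D218G replicate 3 the counts were 14 higher for S phase and 6 higher for mitosis, and a fit of the 6 arrays alone called 8 and 3, so how many members pass depends on the arrays used.

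Of 19 brakes on the cell cycle 7 were lower in D218G, 3 higher and 9 not called (52.6% called, median -0.09, 8 lower without D218G replicate 3). Ccng2, a cyclin of quiescent cells (-0.86 ± 0.09), Btg2, an anti-proliferative factor (-0.70 ± 0.04), Gadd45a, a stress-induced growth arrest protein (-0.55 ± 0.06), and Cdkn1b, an inhibitor of cyclin-dependent kinases (-0.37 ± 0.04), were lower. Gadd45b (0.38) and Gadd45g (0.33), relatives of Gadd45a, and Rbl1, a pocket protein of the retinoblastoma family (0.23), were higher. Myc was higher in D218G by 0.18 (adjusted p = 0.0172), a call lost in 6 alternatives (adjusted p up to 0.0661), and its partner Max by 0.44 ± 0.04. Odc1, the first enzyme of polyamine synthesis, was higher by 0.40 ± 0.04, and Mxd4, which opposes Myc, was lower (-0.24 ± 0.04). In all, 3 of 14 genes of this group were higher and 1 lower (28.6% called). The 32 ribosome biogenesis genes were 5 higher and 4 lower (28.1% called, median 0.02), and their median difference from wild type was 0.39 in both lines. Both shares were near the 25.8% among genes above the median level.

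**Figure D3:**
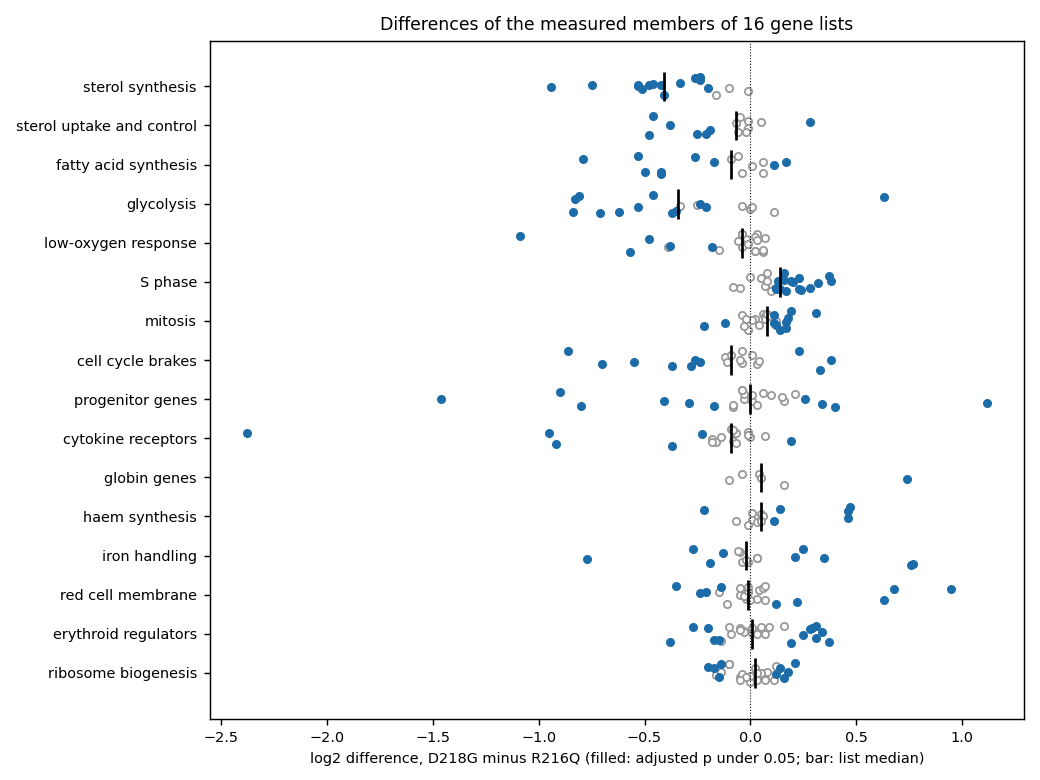
Log2 difference (D218G minus R216Q) of every measured member of 16 gene lists; filled points were called at an adjusted p under 0.05 and bars are list medians. Sterol synthesis (median -0.41) and glycolysis (-0.34) lie below 0, S phase (0.14) lies above it, and globin, haem and red cell membrane genes lie around it.

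The red cell genes, the reason the lines were paired, can be given gene by gene. Over the globin, haem synthesis, red cell membrane and erythroid regulator lists 72 genes were measured, with a median difference of 0.02. Of these 43 were not called, and for all 43 the whole 95% interval lay within 0.5 of 0, for 37 of them within 0.25. Differences beyond 0.5 lie outside those intervals, while smaller ones do not. The widest half-width of these intervals was 0.22. Genes that miss the threshold have small differences, so the bound of 0.5 follows in large part from how they were picked. The other 29 were called (40.3%), 19 higher and 10 lower in D218G, so the lists also hold genes that differ.

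Slc4a1 read 11.33, 11.29 and 11.43 in R216Q and 11.30, 11.32 and 11.26 in D218G, with overlap, and both were below the 12.43, 12.45 and 12.36 of wild type. The difference between the mutants was -0.05 ± 0.05 (adjusted p = 0.692, 95% interval -0.17 to 0.06). Hba-x, the embryonic zeta globin, read 7.64, 7.63 and 7.72 against 7.64, 7.64 and 7.59, where wild type read 9.78, 9.58 and 9.60 (-0.04, interval -0.19 to 0.12). Epb42, the membrane protein 4.2, did not pass either (0.07, interval -0.10 to 0.23). These 3 genes fell from wild type by amounts that the arrays of the mutants could not separate.

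Of the 19 red cell genes higher in D218G, 14 had means below wild type in both lines and 5 had a D218G mean above it. Of 24 red cell membrane genes 5 were higher and 4 lower in D218G (37.5% called), with a median of -0.01. Called or not, 10 of the 24 had a positive difference and 14 a negative one. Tmod3, a cap of actin filaments, read 8.87, 8.89 and 8.92 in R216Q and 9.88, 9.77 and 9.88 in D218G, with wild type at 10.68, 10.70 and 10.72 (0.95 ± 0.04, adjusted p = 4.48e-10). Its relative Tmod1 (0.63 ± 0.06) and Dmtn, the actin-bundling dematin (0.68 ± 0.05), had the same order of lines. With all its probe sets averaged the Tmod1 difference was 0.39. Slc2a1, the glucose carrier also counted with glycolysis, was lower in D218G by the most (-0.35 ± 0.07). The other lower members are not named here. Of 6 globin genes only Hbb-y, an embryonic beta-type globin, was called, 0.74 ± 0.11 higher in D218G. Adult alpha and beta globin genes were not analysed here, because their probe sets carry several symbols.

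Of 14 haem synthesis genes 5 were higher in D218G and 1 lower (42.9% called). Uros, uroporphyrinogen synthase (0.46 ± 0.04), and Abcb6, a porphyrin transporter (0.46 ± 0.04), were below wild type in both lines and by less in D218G. Ppox, protoporphyrinogen oxidase, was higher in D218G by 0.47 ± 0.04 and lay above wild type there (0.27). Alas2 was the 1 lower gene: 12.04, 12.03 and 11.98 in R216Q against 11.78, 11.80 and 11.79 in D218G (-0.22 ± 0.06, adjusted p = 0.0163). Its arrays did not overlap, but the call was lost without R216Q replicate 1 or 2 or D218G replicate 1, and with array weights, with adjusted p up to 0.0667. So the entry enzyme and later steps of 1 pathway differed in opposite directions.

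Iron genes were split, 5 higher and 4 lower of 16 (56.2% called). Erfe, the erythroferrone hormone that red cell precursors secrete (0.77 ± 0.04), Slc11a2, the iron importer DMT1 (0.76 ± 0.04), and Steap3, the reductase of iron in endosomes (0.35 ± 0.03), were higher in D218G. Hmox1, which breaks down haem, fell from 8.0, 7.92 and 7.80 to 7.15, 6.94 and 7.34 (-0.77 ± 0.09). Wild type read 6.80, 6.72 and 6.71 for Hmox1, below all arrays of both mutants.

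Of 28 erythroid regulators 8 were higher and 5 lower in D218G (46.4% called). The median was 0.01 and the range -0.38 to 0.37, so the list did not move 1 way. The higher genes included Trim10, a ligase of maturing red cells (0.37), E2f2 and E2f4, cell cycle factors that red cells need (0.34 and 0.31), Ldb1, which bridges distant GATA1 complexes (0.31), Nfe2, a globin activator (0.28), and Gfi1b, a repressor that GATA1 induces (0.25). Ikzf2, an Ikaros relative, was lower by the most (-0.38), and the other lower members are not named here. The genes of 3 direct partners of GATA1 work missed the threshold: Klf1, the red cell Krüppel-like factor (0.09, adjusted p = 0.163), Zfpm1, which encodes FOG1 (0.03, adjusted p = 0.703), and Tal1, the helix-loop-helix partner (0.01, adjusted p = 0.964). Klf1 passed in 1 alternative, with a trend and robust prior (adjusted p = 0.0317).

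**Figure D4:**
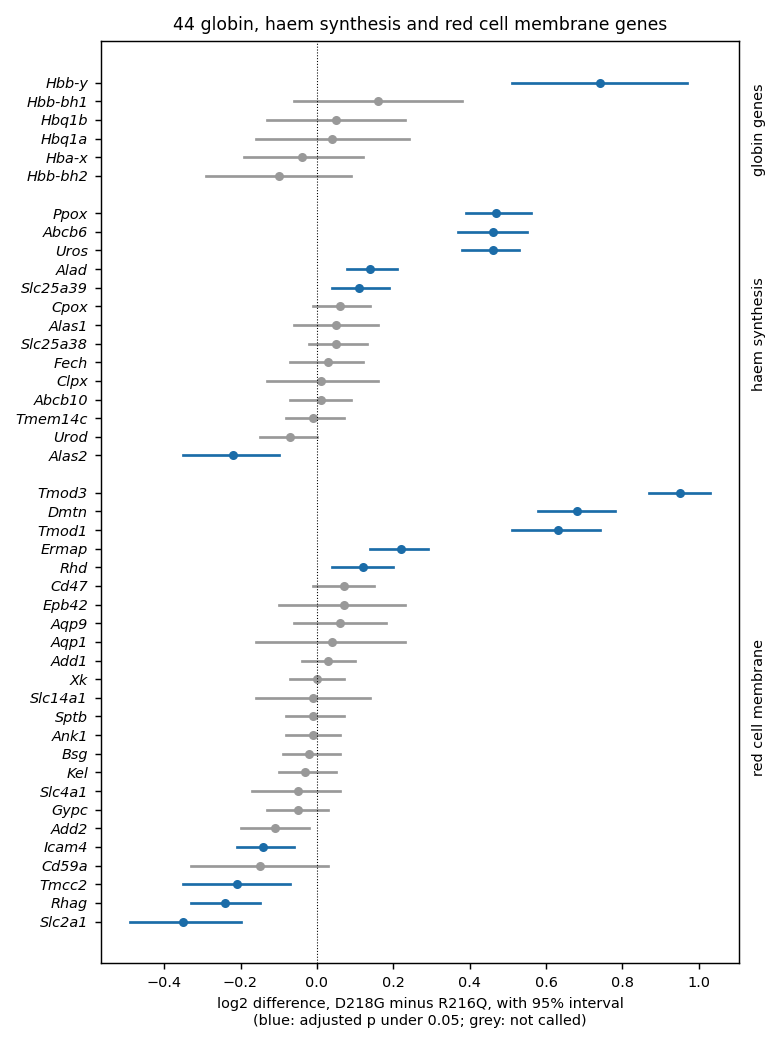
Log2 difference (D218G minus R216Q) with 95% intervals for 44 globin, haem synthesis and red cell membrane genes. Blue points were called at an adjusted p under 0.05, and grey points were not called. Tmod3 (0.95), Hbb-y (0.74) and Dmtn (0.68) lie highest, and most genes lie near 0.

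Of 12 solute transporter genes listed because large changes had been seen in this study, 3 were higher and 3 lower in D218G, and 2 higher and 5 lower without D218G replicate 3. The list was chosen on these arrays and its count is no independent evidence. Beside Slc30a2, Slc22a5, a carnitine transporter, was lower (-0.44), a call lost in 3 alternatives (adjusted p up to 0.136). Slc22a4, an ergothioneine transporter, was far below wild type in both lines (-2.27 in R216Q, -2.42 in D218G) and did not pass between them (-0.15, adjusted p = 0.109), though it did in 4 alternatives (adjusted p from 0.0313).

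The array also reads 300 microRNA genes by name, and these were looked at after their values had been seen. Of them 4 were higher and 3 lower in D218G, or 2.33% called beside 13.4% over all genes, and 2 differed by at least 2-fold, Mir144 and Mir451a, which lie next to each other on chromosome 11 and are known as a red cell microRNA pair that GATA1 induces. Their mature sequences are shown, from RefSeq (GRCm38.p6, plus strand, 5′ to 3′), with the seed (bases 2 to 8) in capitals, to let their seeds be compared. The mature positions are chr11:78073010-78073032, chr11:78073047-78073066 and chr11:78073186-78073207, in the order printed.
mmu-miR-144-5p: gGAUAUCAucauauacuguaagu
mmu-miR-144-3p: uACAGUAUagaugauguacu
mmu-miR-451a: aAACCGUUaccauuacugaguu
The 3 seeds differ from each other. Mir144 read 7.64, 7.91 and 6.96 in R216Q, 8.89, 8.80 and 9.29 in D218G and 8.44, 8.56 and 8.23 in wild type, a difference of 1.49 ± 0.19 (adjusted p = 7.39e-05). Mir451a read 7.94, 7.87 and 7.42 in R216Q, 8.68, 8.81 and 8.87 in D218G and 8.34, 8.28 and 8.02 in wild type (1.04 ± 0.12, adjusted p = 3.37e-05). For both, every D218G array lay above every wild type array and every R216Q array below. The total RNA array does not tell the mature microRNA from the RNA of its locus.

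The study holds the same 2 residues in another pair, D218Y and R216W, whose arrays are not shared with those above. D218Y minus R216W called 7230 genes (36.3%; 3746 higher, 18.8%, and 3484 lower, 17.5%). Of the 2668 genes called between D218G and R216Q, 1106 were called the same way in that pair (41.5% of the 2668 and 15.3% of the 7230) and 956 the opposite way (35.8% and 13.2%). Of the 1299 genes lower in D218G, 509 were lower (39.2%) and 501 higher (38.6%) in D218Y than in R216W. Of the 1369 higher in D218G, 597 were higher (43.6%) and 455 lower (33.2%). Of the 36 genes at least 2-fold lower 16 were lower and 17 higher there, and of the 16 at least 2-fold higher 10 were higher and 3 lower. Whether the pairs differ was not tested.

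Single genes showed both cases. Il9r, Il1bos and Cdc25b were lower in the D218 line of both pairs (-2.89, -2.46 and -2.15 in D218Y minus R216W), as were Il4ra (-2.34) and Hmgcs1 (-0.77). For Il4ra and Hmgcs1, though, the wild type means (7.76 and 10.35) were near those of D218Y (7.6 and 10.22). The R216W means (9.94 and 11.0) were well above them. Gata2 was lower in D218G than in R216Q but higher in D218Y than in R216W (1.59), and Kit (1.19), Hhex (1.81), Erv3 (4.63) and Tph1 (0.65) did the same. Slc30a2 was lower in both, but by far less in the other pair (-0.51). Myb was higher in both (0.34 and 1.49). The median over the sterol synthesis list was -0.28 in the other pair. For glycolysis, with -0.34 here, it was 0.23.

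**Figure D5:**
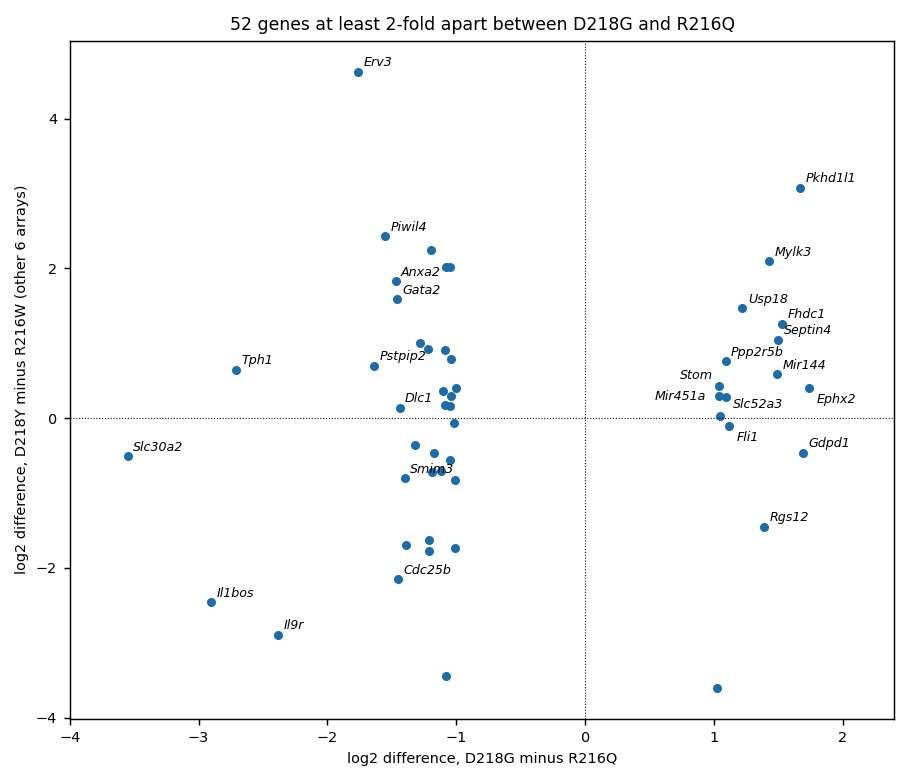
The 52 genes called and at least 2-fold apart between D218G and R216Q (x axis, log2 difference), against the difference between D218Y and R216W (y axis, log2), which uses other arrays. Il9r is low on both axes, while Erv3 and Gata2 are below 0 on x and above 0 on y.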

How the data were processed

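The authors deposited log2 values for each probe set on each array. Partek 6.6 and RMA made them, per the submitters' processing notes; RMA removes background, sets array distributions alike and summarises probes. The sources used here do not give the settings. RMA compresses changes of dim genes, and array values carry no read depth, so the number of arrays limits the precision.

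These values entered the fit as deposited, dim genes included. Groups came from the array titles. Of 28350 probe sets 21780 had 1 gene symbol in the platform annotation, 1618 several and 4952 none listed. Probe sets with 1 symbol stood for 19933 genes; for the 996 genes with more than 1 such probe set, the one with the highest mean over the 15 arrays was kept. RefSeq gene identifiers matched for 21689 probe sets.

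The test was limma 3.58.1 (R 4.3.3), with 1 mean per line over 15 arrays (10 residual degrees of freedom), eBayes with no trend, and p-values adjusted by Benjamini-Hochberg over all genes of a contrast, called at an adjusted p under 0.05, two-sided. Differences from wild type in both lines share the wild type arrays and are given side by side. The script was tested on simulated data.

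The lines, the 31 gene lists, the tests and the naming rule were chosen with earlier results of these data known. The rule named Gata1, the 12 largest called rises and falls whose arrays do not overlap (passing over placeholder symbols and small RNA, olfactory and vomeronasal receptor genes), up to 4 called members per list with the largest differences, and a fixed set of progenitor, red cell and transporter genes. A further 28 genes, the microRNA genes included, were named after their values were seen. Alternatives covered normalization, gene filter, arrays fitted, variance prior, array weights, replicate block, probe set summary, array median, each replicate left out, and a threshold of 0.01. Promoter and microRNA sequences are RefSeq's (GRCm38.p6); 15610 genes had a promoter listed. Motifs were searched on both strands in windows from 250 bases before to 50 after every listed start of a gene.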

Additional observations from a re-analysis of the deposited data

How the results depend on the processing

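Of 176 counts recomputed, 166 stayed within 1.5 times the value given. The count of genes called between D218G and R216Q ran from 2194 to 3005 when 1 of the 6 replicates was left out, was 3200 after quantile normalization, 3027 after cyclic loess and 3484 with the array median as covariate. The fit of the 6 arrays alone called 1541, 759 higher and 782 lower. It has fewer degrees of freedom, and whether that lowered the count was not tested. An adjusted p under 0.01 kept 908 higher genes. With array weights, whose estimation stopped before its tolerance was met, R216Q minus wild type gave 7357 (3774 higher, 3583 lower), and the cause was not tested. The fit of 6 arrays gave 2106 for D218G minus wild type (1217 higher, 889 lower), against 3601 with all 15 arrays. For R216Q minus wild type such a fit gave 3803 against 4283, and for D218Y minus R216W 8592 against 7230. Replicates scattered most in D218G, with a median SD over genes of 0.08, against 0.05 to 0.06 in the other lines. The part of this scatter in the counts was not tested. Between D218G and R216Q, counts of genes called and at least 2-fold apart stayed between 49 and 58.

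Deviations of same-numbered D218G and R216Q arrays correlated at -0.06, -0.49 and -0.5, and those of differently numbered arrays at -0.28 to 0.52. The 3 deviations of a line sum to 0, so these values depend on each other. Pairing by replicate number was not seen. With the replicate number as a block 2431 genes were called, 1232 higher and 1199 lower.

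Of 2520 refits of single named genes, 2438 kept direction and side of the threshold, 69 lost the call, 13 gained it and 0 reversed. These changes fell on 19 of 158 named genes. Of 477 recomputed list medians, 62 moved by over 1 SD between replicates. The limits are 3 arrays a line, 1 line a construct, 1 time point and no untreated culture.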

Other observations

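Stress and housekeeping lists were mixed between the lines. Of 25 early stress response genes 5 were lower in D218G and 2 higher (28.0% called, against 25.8% of genes above the median level). Egr1, an immediate early zinc finger factor, read 8.69, 8.68 and 8.70 in R216Q and 7.57, 7.61 and 7.75 in D218G, with wild type at 7.29, 7.20 and 7.44 (-1.05 ± 0.06). Zfp36, which speeds the decay of messages with AU-rich elements (-0.99 ± 0.05), and Klf6, a Krüppel-like factor (-0.86 ± 0.05), were lower too. Dusp1, a phosphatase of MAP kinases, was higher in D218G (0.81 ± 0.04), so the list did not move as one. Of 23 amino acid supply and ATF4 target genes 7 were lower and 1 higher (34.8% called, 5 lower without D218G replicate 3).

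Of 28 glutathione and antioxidant genes 8 were higher in D218G and 4 lower (42.9% called, 6 higher without D218G replicate 3). Gsta4, a glutathione transferase for lipid aldehydes, read 8.14, 8.17 and 8.16 in R216Q and 9.05, 9.02 and 9.12 in D218G, both above wild type (7.26, 7.55 and 7.22). The difference was 0.91 ± 0.07. Mgst3, a membrane-bound transferase (0.78 ± 0.08), and Gpx4, which reduces lipid peroxides (0.40 ± 0.05), were higher, but in both lines lay below wild type. Slc7a11, the cystine importer, was lower in D218G (-0.47 ± 0.10). Of 16 lysosomal protease genes 6 were higher and 2 lower. Ctsl, cathepsin L, was higher by 0.35 ± 0.04 and Lgmn, legumain, lower (-0.84 ± 0.07), and both were above wild type in both lines.

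Of 22 autophagy genes 5 were higher and 1 lower (27.3% called, near the 25.8% of genes above the median level). Without D218G replicate 3 the counts were 4 and 3. Atg2a, a lipid transfer protein of the growing autophagosome, was highest (0.68 ± 0.04). Of 17 heat shock and chaperonin genes 1 was higher and 2 lower (17.6% called, 0 and 4 without D218G replicate 3). Of 21 interferon response genes 1 was higher (4.76% called). None of 14 Bcl2 family genes was called with limma, and 4 had an unadjusted p under 0.05, all higher in D218G.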
